A study of Mus musculus with 2 samples.

Results

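Hippocampal neural stem cells that had left quiescence for 48 h were set against neural stem cells still held in quiescence, gene by gene. The cells were those that the submitters' per-cell table assigns to the 48 h exit condition (151 cells) or to the quiescent condition (174 cells), which makes 325 of the 640 cells in the table. Transcript counts were summed per culture and gate, which gave 4 gate-matched pairs of sums. Of 15364 genes in the merged table, 10663 had at least 20 counts over both cultures and are called measured below.

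All cells came from cultures of hippocampal neural stem cells of 6-week-old male C57BL6/J mice. The 48 h exit culture had first been made quiescent and was then kept in the growth medium with 20 ng/mL each of FGF2 and EGF, heparin and 0.5 ug/mL of noggin, a protein that binds BMP4. The quiescent culture was kept without EGF, with FGF2 and 50 ng/mL of BMP4, and counted as quiescent after 3 days of that medium. The series also holds a culture 24 h after exit and an activated culture kept in growth medium. Single cells of each culture were sorted into 384-well plates through 4 gates of rising punctate autofluorescence, named low, low-mid, mid-high and high here. Each condition is 1 culture, so neither gates nor cells are replicates of it, and no p-value is given. The 48 h cells shared a plate with the activated cells and the quiescent cells shared one with the 24 h cells, so that plate and condition cannot be told apart.

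Neural stem cells of the adult hippocampus are mostly quiescent, and bone morphogenetic proteins (BMPs) are a niche signal that keeps them so. BMPs bind paired type I and type II receptors, which phosphorylate SMAD proteins; these enter the nucleus and switch on ID genes, which block transcription factors that drive activation and differentiation, along with feedback inhibitors of the pathway itself. EGF and FGF2 act through receptor tyrosine kinases and the MAPK cascade, which raises D-type cyclins, and cyclin-dependent kinases then carry cells through DNA synthesis and mitosis. Cells leaving quiescence also build ribosomes, nucleotides and membrane lipids.

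Totals were 4125228 counts at 48 h and 4815934 in quiescence, with medians of 24947 and 25137 transcripts and 5042 and 5090.5 genes per cell. By gate, from low to high autofluorescence, the ratio of median transcripts, 48 h over quiescent, was 1.08, 0.995, 0.962 and 0.830. Spike-in RNAs were added to the wells and came from no cell. For the 18 of 69 with at least 100 counts in each culture, log2 ratios of their shares ran from -0.29 to 0.25 between the cultures. Their SD was 0.13. The highest ratio rested on 123 counts at 48 h and 138 in quiescence, with an interval of -0.11 to 0.61, so counting error is part of this range. Median transcripts per spike-in count at 48 h were 1.11 times those of quiescent cells, and 1.35, 1.33, 1.17 and 0.994 times from the low to the high gate. Median forward scatter at 48 h was 0.849 times that of quiescent cells and median side scatter 0.672 times. Median punctate autofluorescence was 5359 at 48 h and 5535 in quiescence, and its ratio by gate, 48 h over quiescent, was 0.967, 0.989, 1.08 and 1.14. Ribosomal protein transcripts took a median of 3.98% of a cell's counts at 48 h and 2.51% in quiescence, and mitochondrial ones 8.88% and 6.94%.

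Across all measured genes, 477 (4.47%) were at least 2-fold higher at 48 h and 528 (4.95%) at least 2-fold lower. The ratio used, except where cells called G0 are compared, is the mean of the 4 gate-matched log2 ratios, 48 h over quiescent. It is taken on CPM, counts scaled by the sum of all counts of a gate, with 10 CPM added, and given with its SD over gates. Intervals in parentheses are exact 95% intervals of the ratio of summed counts and cover counting error only. Scaling by the spike-in RNAs gave 662 higher and 402 lower genes, and totals without mitochondrial and ribosomal protein genes gave 707 and 509. The median over all genes was -0.03, and the middle 90% lay between -0.99 and 0.94. In each of the 4 gates taken alone 256 genes (2.40%) were at least 2-fold higher and 303 (2.84%) at least 2-fold lower. Levels in the 4 gates of one culture all lay above those of the other for 1744 genes (16.4%) with 48 h on top and 1982 genes (18.6%) with quiescent cells on top. In sums of this kind fewer cells of a type and less RNA per cell cannot be told apart.

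**Figure D1:**
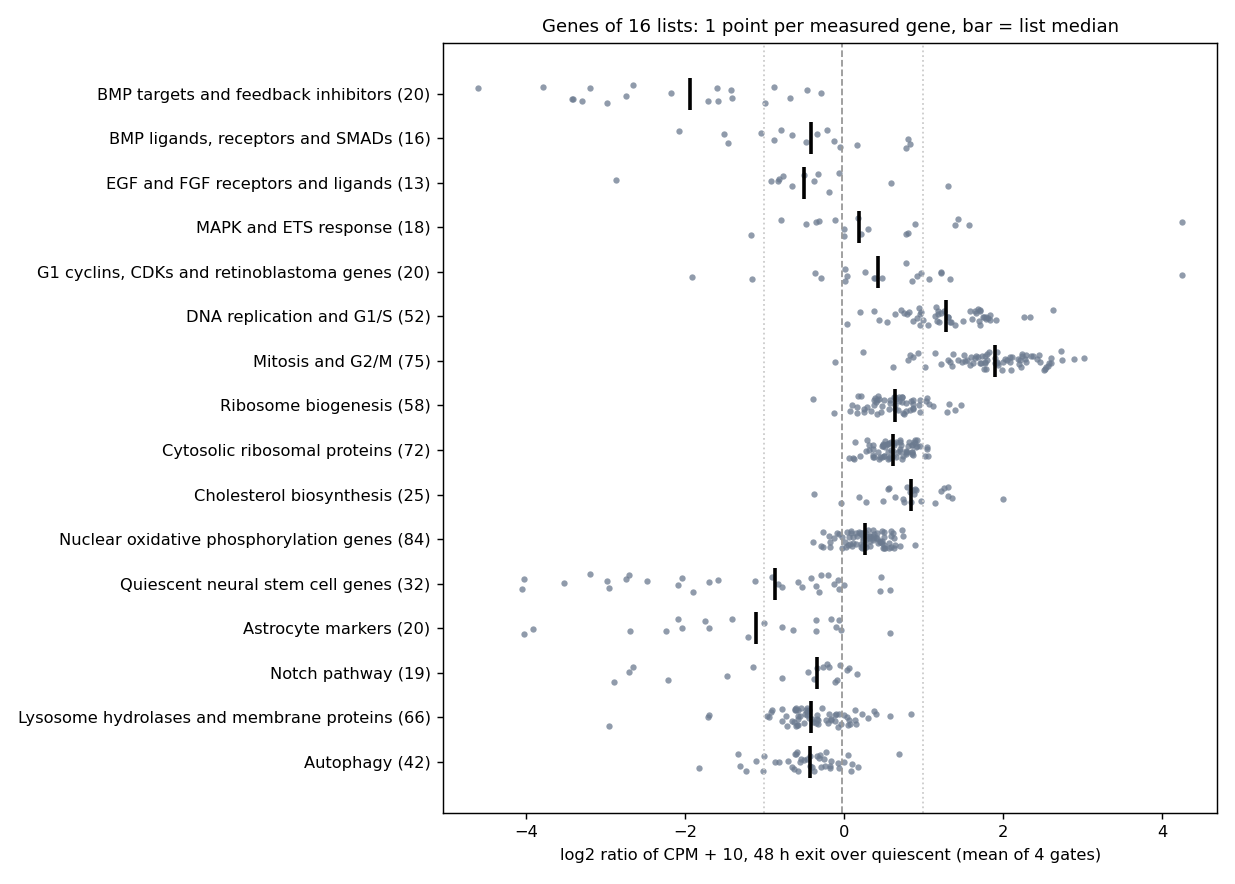
Log2 ratio of CPM with 10 CPM added, 48 h exit over quiescent (horizontal axis, mean of 4 gates), for every measured gene of 16 lists, with 1 point per gene, the number measured in parentheses and a bar at the list median. The dashed line is the median of all 10663 genes at -0.03 and the dotted lines mark a 2-fold difference; BMP targets lie furthest to the left at a median of -1.94 and G2/M genes furthest to the right at 1.91.

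BMP target genes were lower at 48 h, several of them close to zero. All 20 measured genes of a list of 23 BMP targets and feedback inhibitors had a ratio below 0, beside 52.6% of all measured genes, 15 of them at least 2-fold lower, and the median was -1.94. Id1 stood at 16.3, 14.7, 13.3 and 20.2 CPM in the 4 gates of the 48 h culture, from low to high autofluorescence, against 411, 395, 316 and 285 CPM in those of the quiescent culture. The cultures do not overlap, and the log2 ratio was -3.78 ± 0.35 (interval -3.93 to -3.47). Id3 had 120, 94.9, 91.1 and 95.2 CPM at 48 h, against 899, 916, 825 and 791 CPM in quiescence, a log2 ratio of -2.98 ± 0.15. Id2 and Id4, the remaining members of this family of inhibitors of basic helix-loop-helix factors, had log2 ratios of -2.74 ± 0.49 and -3.19 ± 0.32.

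Several genes whose products dampen BMP signalling were close to zero at 48 h. Smad6, an inhibitory SMAD, had 2 counts in all 151 cells at 48 h, or 0, 1.13, 0 and 0.675 CPM by gate, against 124, 94.9, 114 and 78.9 CPM in quiescent cells. On summed counts it was 204-fold lower at 48 h (95% counting interval 56.5 to 1684). Smad7, the other inhibitory SMAD, had a log2 ratio of -3.29 ± 0.31. Pmepa1, a membrane protein that holds back receptor-regulated SMADs, had 2.33, 3.39, 0 and 2.70 CPM at 48 h and 115, 106, 117 and 133 CPM in quiescence. Nog encodes noggin itself, the antagonist that was also added as protein to the exit medium; it had 1 count at 48 h, against 266, 296, 240 and 163 CPM in the quiescent gates. Bambi, a pseudoreceptor that competes with BMP receptors, had a log2 ratio of -1.42 ± 0.28. At the other end of the list Chrdl1, a secreted BMP antagonist, had a log2 ratio of -0.29 ± 0.44 and its gates overlap.

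Receptors differed among themselves. Bmpr2, the type II receptor, had 170, 181, 165 and 167 CPM in the gates at 48 h, against 891, 822, 695 and 614 CPM in quiescence, a log2 ratio of -2.07 ± 0.21. The quiescent levels step down with autofluorescence while those at 48 h are level. Bmpr1a, a type I receptor, had a log2 ratio of -1.50 ± 0.25, Neo1, the neogenin coreceptor, one of -1.45 ± 0.25 and Acvr1, another type I receptor, one of -1.04 ± 0.28. The effector Smad1 had 24.5, 13.5, 22.2 and 25.0 CPM at 48 h and 33.3, 15.8, 18.7 and 23.2 CPM in quiescence, and its interval of -0.31 to 0.27 includes 0. Smad3, which mainly serves TGF-beta and activin, was at 0.84 ± 0.24, and the ligand gene Bmp7 at 0.78 ± 0.15. Of 16 measured ligands, receptors and SMADs, 4 were at least 2-fold lower, 0 at least 2-fold higher, and the median was -0.41.

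Promoters of 2 BMP targets are shown because the data place these genes among those with the lowest ratios and because their windows hold sequence motifs known for SMAD binding. Windows run from 250 bases before to 50 bases after the annotated start (RefSeq, GRCm38.p6). GGCGCC is a GC-rich SMAD element and GTCTAGAC the palindromic SMAD-binding element; both read the same on either strand, and neither overlaps the other. Capitals mark them in Smad6 (chr9:64022010-64022309, minus strand), where GTCTAGAC starts 4 bases before the start site, and in Id2 (chr12:25096043-25096342, minus strand), where GGCGCC starts 231 bases before it.
Smad6: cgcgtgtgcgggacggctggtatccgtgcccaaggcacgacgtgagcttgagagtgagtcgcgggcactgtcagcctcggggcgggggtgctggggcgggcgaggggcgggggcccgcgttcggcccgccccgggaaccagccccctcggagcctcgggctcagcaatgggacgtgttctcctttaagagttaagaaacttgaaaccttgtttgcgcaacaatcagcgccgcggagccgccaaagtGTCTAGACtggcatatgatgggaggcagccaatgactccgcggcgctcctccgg
Id2: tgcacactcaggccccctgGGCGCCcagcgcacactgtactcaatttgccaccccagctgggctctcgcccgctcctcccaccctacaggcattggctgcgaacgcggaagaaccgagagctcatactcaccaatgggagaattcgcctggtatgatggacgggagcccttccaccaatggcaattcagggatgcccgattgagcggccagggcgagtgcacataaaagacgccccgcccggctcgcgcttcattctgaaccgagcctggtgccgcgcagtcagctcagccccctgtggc
A window was found for 10 of the 20 measured BMP targets. GGCGCC occurred in 5 of these 10 windows (50%), those of Id2, Id4, Nbl1, Ski and Smad9, beside 11.9% of all 32851 promoter windows and 22.4% of the 10379 windows of measured genes. GTCTAGAC occurred in the Smad6 window, beside 0.213% of all windows.

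Growth factor genes moved in both directions. Egfr, the EGF receptor, had 53.6, 73.4, 48.9 and 43.9 CPM in the gates at 48 h, against 11.9, 13.0, 17.9 and 22.0 CPM in quiescence. The gates do not overlap, and the log2 ratio was 1.31 ± 0.49 (interval 0.95 to 1.47). Its ligand gene Hbegf went the other way, with 35.0, 7.90, 37.8 and 27.0 CPM at 48 h and 240, 235, 281 and 215 CPM in quiescence, a log2 ratio of -2.87 ± 0.61. Fgfr1, an FGF2 receptor, had a log2 ratio of -0.77 ± 0.12 and Fgf1, an FGF ligand, one of -0.83 ± 0.16. Of 13 measured receptors and ligands of this class, 1 was at least 2-fold higher, 1 at least 2-fold lower and 11 lay below 0.

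Spry4 and Dusp6, which encode feedback inhibitors of MAPK signalling, were higher at 48 h. Spry4, a Sprouty protein, had 472, 369, 411 and 412 CPM at 48 h, against 149, 145, 133 and 109 CPM in quiescence, and Dusp6, the ERK phosphatase, had 505, 500, 424 and 443 CPM against 192, 158, 166 and 152 CPM. Their log2 ratios were 1.57 ± 0.22 and 1.43 ± 0.13, and neither gene overlaps between the cultures. Etv5, an ETS factor that FGF signalling induces, was level, with a log2 ratio of 0.00 ± 0.09 and an interval of -0.07 to 0.10. The list of 18 measured MAPK and ETS genes had 11 members above 0 and 7 below, 4 at least 2-fold higher and 1 at least 2-fold lower, with a median of 0.19. Ccnd1 is one of the 4 and the highest of the list. Among 13 immediate early genes Egr1 was at 1.44 ± 0.25 and Dusp1, a stress-induced MAPK phosphatase, at -2.17 ± 0.36, and the list median was -0.07.

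**Figure D2:**
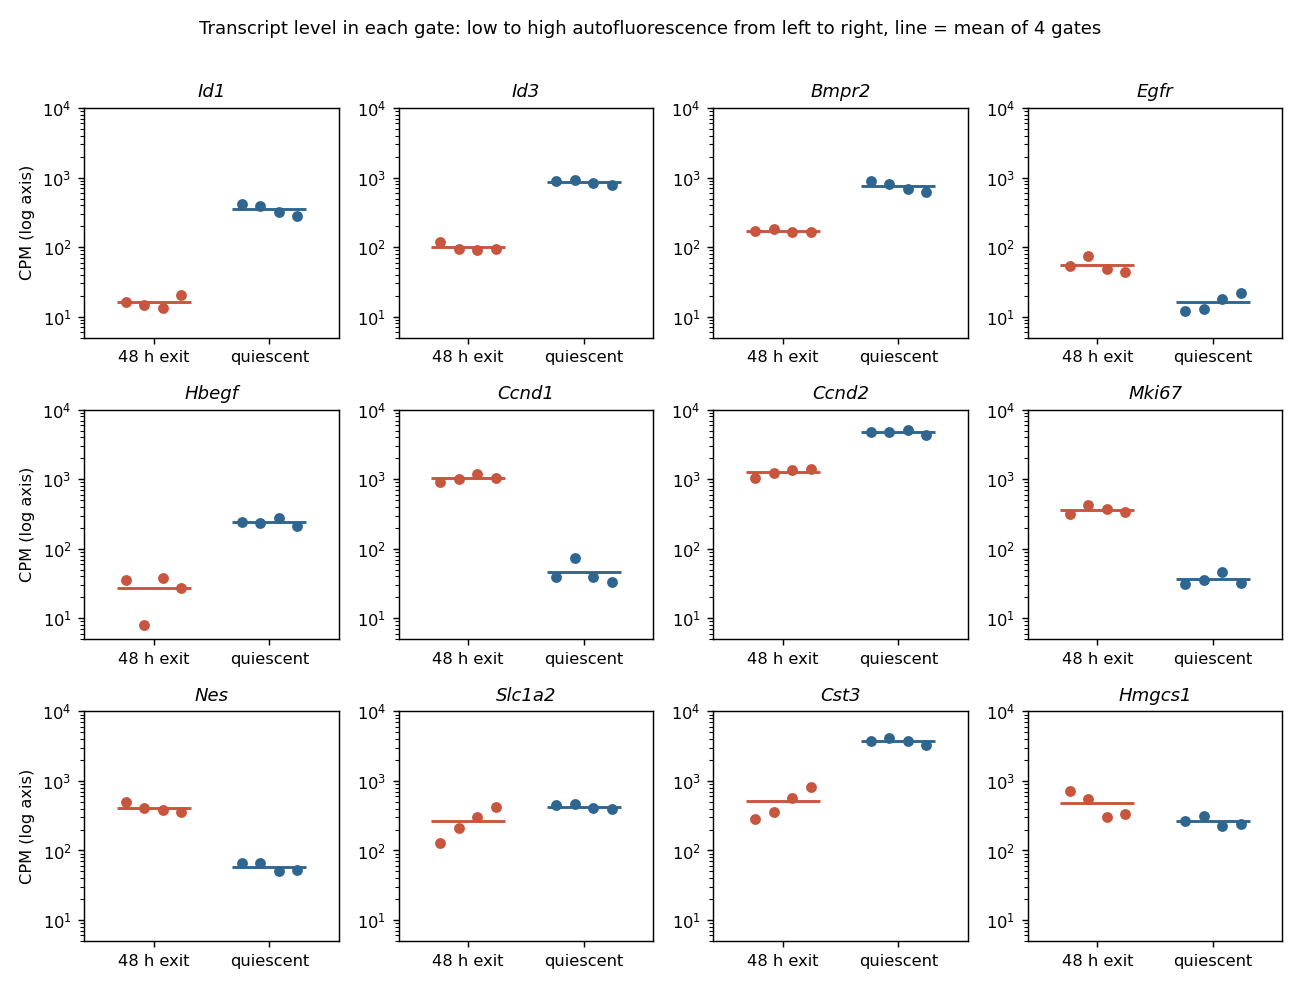
Transcript level in CPM (log axis) of 12 genes in the 4 gates of the 48 h exit culture (left of each panel) and of the quiescent culture (right), low to high autofluorescence from left to right, with a line at the mean of the gates. The Id1 values at 48 h lie between 13.3 and 20.2 CPM and those in quiescence between 285 and 411 CPM; Slc1a2 and Cst3 step up through the gates at 48 h, and Slc1a2 and Hmgcs1 overlap between the cultures.

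The D-type cyclins moved in opposite directions. Ccnd1, which ties growth factor signalling to the G1 kinases, had 905, 1013, 1176 and 1043 CPM in the gates at 48 h, against 39.2, 73.5, 39.2 and 33.6 CPM in quiescence. Ccnd2 had 1042, 1230, 1381 and 1424 CPM at 48 h, against 4752, 4820, 5180 and 4364 CPM in quiescence, a log2 ratio of -1.91. Every gate of either gene lay clear of the other culture, in opposite directions. After every cell was thinned to 13205 transcripts, Ccnd1 was seen in 99.3% of 138 cells at 48 h (exact interval 96.0 to 100.0) and in 29.9% of 154 quiescent cells (22.8 to 37.8), and without thinning in 98.7% and 40.8%. Thinning left out 13 cells at 48 h and 20 quiescent cells with fewer transcripts.

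Other regulators of the G1 phase moved less. Cdk4, the kinase partner of D-type cyclins, had a log2 ratio of 1.22 ± 0.19, Rbl1, which encodes the retinoblastoma relative p107, one of 1.33 ± 0.51, and E2f8, an atypical E2F repressor, one of 1.22 ± 0.41. Rb1, the retinoblastoma gene, was lower at -1.16 ± 0.35. Of 20 measured genes of this class 5 were at least 2-fold higher and 2 at least 2-fold lower, and the median was 0.43. Among 20 CDK inhibitors and p53 targets, 13 lay above 0 and 7 below, with 0 at least 2-fold higher and 2 at least 2-fold lower. Cdkn1a, which encodes p21, had 235, 299, 412 and 594 CPM at 48 h, against 168, 85.6, 177 and 457 CPM in quiescence. It was higher at 48 h in every matched gate and highest in the high gate of both cultures, so the cultures overlap only across unlike gates. Cdkn1b, which encodes p27, had a log2 ratio of -0.44 ± 0.15. Gadd45g and Gadd45b, growth arrest and DNA damage genes, had log2 ratios of -1.81 ± 0.35 and -1.57 ± 0.15.

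Genes of DNA synthesis and mitosis were higher at 48 h nearly throughout. All 52 measured replication and G1/S genes of 53 listed had a ratio above 0, beside 47.4% of all measured genes, and 35 were at least 2-fold higher, with a median of 1.28. Rrm2, the small subunit of ribonucleotide reductase, had 272, 182, 305 and 255 CPM at 48 h, against 54.7, 34.4, 27.3 and 18.6 CPM in quiescence, and Tk1, thymidine kinase, had 127, 130, 197 and 142 CPM against 26.2, 20.5, 18.7 and 18.6 CPM. In both genes the quiescent level was highest in the low gate. The log2 ratio of Rrm2 ranged over gates between 2.11 and 3.21. The replicative helicase gene Mcm7 had a log2 ratio of 2.26 ± 0.44 and Uhrf1, which keeps DNA methylation in place behind the fork, one of 1.91 ± 0.64. Of 75 G2/M genes, all measured, 68 were at least 2-fold higher and 0 at least 2-fold lower, with a median of 1.91.

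Mki67, the standard proliferation marker, had 320, 431, 368 and 333 CPM in the gates at 48 h, against 30.9, 35.4, 46.1 and 32.6 CPM in quiescence. Fam64a, a regulator of chromosome segregation also called PIMREG, had a log2 ratio of 2.90 ± 0.75, Ccnb1, the mitotic cyclin B1, one of 2.74 ± 0.77 and Pbk, a mitotic kinase, one of 2.72 ± 0.30. Plk1, the polo-like kinase, had 119, 149, 131 and 101 CPM at 48 h, against 7.13, 3.72, 25.6 and 18.6 CPM in quiescence. In quiescence 5 of 174 cells were called G2/M. The member nearest to 0 was Pttg1, which encodes securin, with 67.6, 66.6, 62.2 and 71.6 CPM at 48 h and 74.9, 61.4, 74.1 and 82.4 CPM in quiescence.

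Of 41 measured chromatin genes 36 lay above 0, while microtubule genes were divided. H2afx and H2afz, which encode histone variants, had log2 ratios of 2.16 ± 0.13 and 1.88 ± 0.11, and 18 of the 41 chromatin genes were at least 2-fold higher with a median of 0.80. Hmga2, a high-mobility-group gene of fetal stem cells, was the member at least 2-fold lower, at -1.58 ± 0.30. Stmn1, which takes microtubules apart, had 365, 374, 391 and 321 CPM at 48 h, against 99.9, 34.4, 83.7 and 45.9 CPM in quiescence. Tubb5 and Tuba1b, the common tubulins of dividing cells, were at 1.98 ± 0.36 and 1.75 ± 0.23, Tubb3, the neuronal tubulin, at -1.89 ± 0.98, and the 25 measured tubulin and microtubule genes had a median of 0.10. Of these 25 genes 14 lay above 0 and 11 below, with 6 at least 2-fold higher and 2 lower. Lmnb1, a B-type lamin of the nuclear envelope, was at 1.86 ± 0.50.

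Promoters of Mki67 (chr7:135716330-135716629, minus strand) and Plk1 (chr7:122159185-122159484, plus strand) are shown because these G2/M genes move together and because many G2/M promoters are known to hold a CHR element, TTTGAA or TTCGAA, and CCAAT boxes bound by NF-Y. Both strands were searched, no motif overlaps another here, and capitals mark the matches: in Mki67 CCAAT starts 188, 166 and 141 bases before the start site and TTTGAA 116 and 98 bases before it, and in Plk1 CCAAT starts 14 bases before the start site and TTTGAA 31 bases after it.
Mki67: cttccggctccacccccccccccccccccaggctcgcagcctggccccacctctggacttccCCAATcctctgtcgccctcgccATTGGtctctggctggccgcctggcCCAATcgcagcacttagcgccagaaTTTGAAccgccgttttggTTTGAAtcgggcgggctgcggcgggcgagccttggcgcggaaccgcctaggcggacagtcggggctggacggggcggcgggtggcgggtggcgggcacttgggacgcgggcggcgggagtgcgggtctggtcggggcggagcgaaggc
Plk1: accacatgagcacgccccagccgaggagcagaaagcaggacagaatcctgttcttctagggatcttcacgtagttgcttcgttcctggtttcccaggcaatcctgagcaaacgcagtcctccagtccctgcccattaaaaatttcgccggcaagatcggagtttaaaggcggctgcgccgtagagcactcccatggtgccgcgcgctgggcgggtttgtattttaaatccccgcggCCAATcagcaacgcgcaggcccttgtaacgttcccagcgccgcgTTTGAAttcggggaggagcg
Windows were found for 60 of the 75 G2/M genes, 67 windows in all. TTTGAA occurred in 41 of the 67 windows (61.2%), beside 17.9% of all 32851 windows and 11.3% of the windows of measured genes. TTCGAA occurred in 7 windows, beside 1.56% of all windows. CCAAT occurred in 52 windows (77.6%), beside 37.4% of all windows. A match is a description of these letters and says nothing about binding in these cells.

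Cell cycle phase was also called cell by cell in the submitters' table. At 48 h 108 of 151 cells (71.5%, exact interval 63.6 to 78.6) were called S or G2/M, against 16 of 174 quiescent cells (9.20%, 5.35 to 14.5). G0 was the call of 22 cells at 48 h (14.6%, 9.36 to 21.2) and of 146 quiescent cells (83.9%). At 48 h the G0 calls were uneven over the gates, with 0 of 42 cells in the low, 4 of 36 in the low-mid, 5 of 33 in the mid-high and 13 of 40 in the high gate. S or G2/M calls numbered 34, 27, 23 and 24 in the same gates. The submitters' clustering put 109 of the 48 h cells in the cluster numbered 3, 41 in cluster 0, 1 in cluster 2 and 0 in cluster 1, while 166 of 174 quiescent cells were in cluster 1. Phase and cluster were both assigned from transcript counts, so they are not independent of the levels above.

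**Figure D3:**
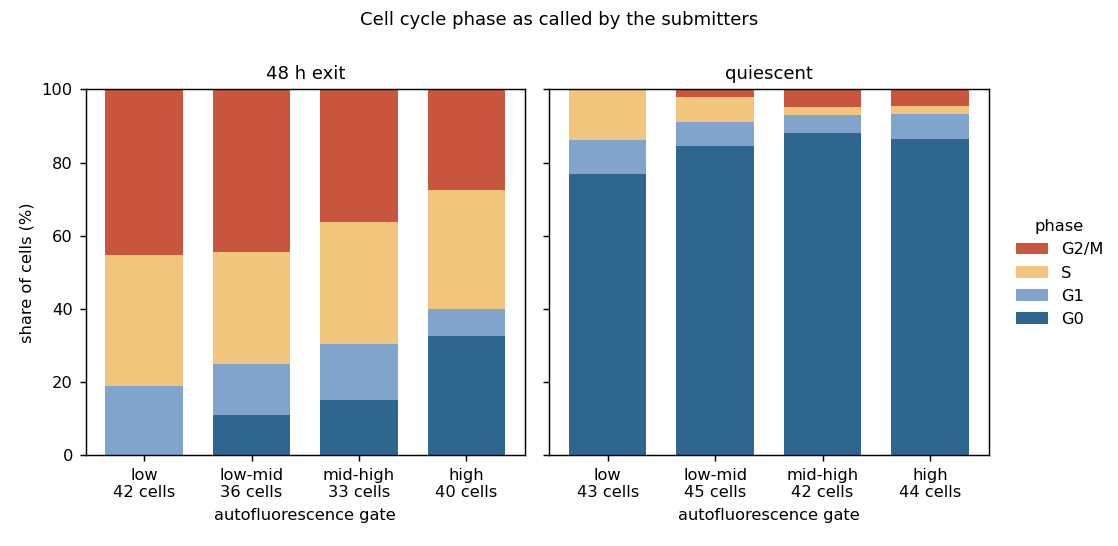
Share of cells (%) called G0, G1, S or G2/M in the submitters' table in each autofluorescence gate, for the 48 h exit culture (left) and the quiescent culture (right), with the number of cells under each bar. The G0 share at 48 h is 0 of 42 cells in the low gate and 13 of 40 in the high gate, while 146 of 174 quiescent cells are called G0.

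Genes for making proteins were modestly higher at 48 h, and most so in the low gates. Ribosome biogenesis had a median of 0.65, with 56 of 58 genes above 0 and 8 at least 2-fold higher. Its highest members were Nop58 and Nop56, core proteins of box C/D small nucleolar particles, at 1.48 ± 0.40 and 1.40 ± 0.11, and the helicase gene Ddx21 at 1.32 ± 0.24. Nop56 had 335, 216, 225 and 149 CPM at 48 h, against 113, 78.1, 74.1 and 56.3 CPM in quiescence. In both cultures its level was highest in the low gate. All 72 measured cytosolic ribosomal protein genes were above 0, beside 47.4% of all measured genes, with a median of 0.61. At least 2-fold higher were 4 of them, near the share of 4.47% over all measured genes, among them Rpl21 at 1.05 ± 0.24. How reads shared with their pseudogene copies were assigned is not given in the sources used here. The ribosomal RNA precursor Rn45s was at -0.44.

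Translation factors had a median of 0.41 over 46 genes, led by Eif4ebp1, an inhibitor of cap-dependent initiation, at 1.37 ± 0.67. Cytosolic tRNA synthetases had a median of 0.41 over 22 genes, led by the valyl-tRNA synthetase gene Vars at 1.30 ± 0.33, and mitochondrial ribosomal proteins one of 0.34 over 76. Spliceosome genes had a median of 0.56 over 48, with Hnrnpab at 1.54 ± 0.03, and nuclear transport genes one of 0.57 over 40, with Kpna2, an importin subunit, at 1.62 ± 0.65. Chaperone genes divided: the chaperonin subunit gene Cct5 headed a list with a median of 0.43, while Hspb8 and its partner Bag3, which route damaged proteins to autophagy, were at -3.70 ± 0.57 and -1.84 ± 0.21. Hspb8 had 9.33, 9.03, 8.89 and 26.3 CPM at 48 h, against 311, 312, 250 and 256 CPM in quiescence. ER folding genes had a median of -0.28, with Xbp1, a factor of the unfolded protein response, at -1.66 ± 0.34 and the chaperone calreticulin gene Calr at -1.05 ± 0.20. Proteasome subunits were level, with a median of 0.09 and 0 of 43 past 2-fold in either direction.

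Genes for making nucleotides, serine and sterols were higher at 48 h. Psat1, an enzyme of serine synthesis, had 530, 455, 401 and 375 CPM at 48 h, against 126, 96.7, 89.4 and 114 CPM in quiescence, and Shmt2, the mitochondrial enzyme that passes on one-carbon units, was at 1.29 ± 0.31. The nucleotide and one-carbon list had a median of 0.70, with 8 of 33 at least 2-fold higher and 1 lower. Cholesterol synthesis had a median of 0.85, with 7 of 25 at least 2-fold higher and 0 lower. Fdps, the farnesyl diphosphate synthase, had 232, 203, 123 and 114 CPM at 48 h, against 80.9, 55.8, 49.4 and 46.4 CPM in quiescence. Hmgcs1, which makes HMG-CoA, had 728, 543, 298 and 329 CPM at 48 h, against 265, 316, 224 and 240 CPM in quiescence. The low, low-mid and high gates at 48 h lay above every quiescent gate, and the mid-high gate fell within the quiescent range. Lbr, a sterol reductase of the nuclear membrane, was at 2.00 ± 0.29.

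Energy metabolism differed less. Nuclear genes for oxidative phosphorylation had a median of 0.27, with 72 of 84 above 0 and 0 past 2-fold, mitochondrial genome transcripts one of 0.25 over 20, and TCA cycle genes one of 0.20 over 24. The glycolysis list had a median of -0.17 with members far to either side. Gpd1, which links glycolysis to glycerolipids, had 93.3, 168, 168 and 178 CPM at 48 h, against 7.13, 14.9, 14.5 and 26.1 CPM in quiescence. Pkm, pyruvate kinase, was at 1.43 ± 0.07, while Aldoc, the astrocytic aldolase, had 615, 522, 843 and 1271 CPM at 48 h, against 3484, 3575, 3192 and 2958 CPM in quiescence. Fatty acid synthesis genes had a median of 0.04, with the elongases Elovl6 at 1.07 ± 0.45 and Elovl2 at -2.02 ± 0.63, and fatty acid oxidation and transport genes one of -0.14, with the lipid carrier gene Fabp5 at -1.58 ± 0.26.

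Genes of quiescent stem cells and astrocytes were lower at 48 h, to very different degrees. A list of 36 quiescent neural stem cell genes, 32 of them measured, had 15 members at least 2-fold lower and 0 higher, with a median of -0.86. Astrocyte markers had 11 of 20 at least 2-fold lower, 0 at least 2-fold higher, and a median of -1.10, with 19 below 0 and 1 above. Aqp4, the water channel of astrocyte endfeet, had 4.66, 5.65, 5.55 and 7.42 CPM at 48 h, against 360, 271, 177 and 216 CPM in quiescence. Gfap, the intermediate filament of astrocytes and radial stem cells, had 0, 1.13, 3.33 and 4.05 CPM at 48 h, against 38.0, 75.3, 106 and 65.0 CPM in quiescence. Apoe, the main lipid carrier of glia, had 40.8, 29.4, 62.2 and 101 CPM at 48 h, against 575, 755, 694 and 859 CPM in quiescence. Each of these was clear of the other culture in all gates. Slc1a2, the glutamate transporter GLT-1, was not: it had 128, 214, 307 and 422 CPM at 48 h, against 456, 460, 402 and 394 CPM in quiescence, so the log2 ratio was -1.75 in the lowest gate and 0.09 in the highest. Mlc1, an astrocyte membrane protein, was the astrocyte marker nearest to 0, at -0.04 ± 0.18. The marker above 0 was the gap junction gene Gja1, at 0.58, with 66.7 CPM at 48 h and 42.4 CPM in quiescence. Aldh1l1, another astrocyte marker, was at -0.16.

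Of 24 measured stem cell identity genes 9 lay above 0 and 15 below, 3 were at least 2-fold higher and 5 lower, and the median was -0.42. Nes, the intermediate filament nestin, had 501, 414, 378 and 353 CPM at 48 h, against 65.4, 65.1, 51.1 and 51.6 CPM in quiescence, a log2 ratio of 2.62 ± 0.12, and after thinning it was seen in 96.4% of cells at 48 h and 50.6% of quiescent cells. Vim, vimentin, was at 0.63 ± 0.13. Sox2, the core transcription factor of neural stem cells, had 146, 167, 168 and 178 CPM at 48 h and 199, 205, 191 and 181 CPM in quiescence. Its gates do not overlap between the cultures. The log2 ratio of Sox2, -0.22 ± 0.17, lies within the range of the spike-in RNAs, of which counting error is a part. Hopx, a marker of quiescent hippocampal stem cells, was at -1.59 ± 0.56, Sox5, a SOX factor linked to quiescence, at -1.44 ± 0.12 and Sox11, which marks progenitors, at 1.81 ± 0.29. Gas1, named for arrest of growth, went against the name of the quiescence regulator list, with 464, 432, 395 and 398 CPM at 48 h and 76.1, 88.4, 103 and 76.0 CPM in quiescence. The other members of that list that passed 2-fold, Axl, a receptor tyrosine kinase, Tsc22d4 and Sox5, were lower, and the median over 28 genes was -0.54. Activated stem and progenitor genes, a list that shares cell cycle genes with those above, had a median of 1.66, with 23 of 31 at least 2-fold higher.

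Markers of oligodendrocyte precursors moved in part. Olig2 had 1750, 1617, 1634 and 1533 CPM at 48 h, against 519, 523, 466 and 462 CPM in quiescence, and Olig1 was at 0.41 ± 0.06. Nkx2-2 was at 1.08 ± 0.32 and Sox8 at -0.79 ± 0.14. Mbp, of mature oligodendrocytes, had 0 counts at 48 h and 1 in quiescence, and Pdgfra, of their precursors, had 16 and 9 counts. Among neuronal genes Gap43, a growth cone protein, was at 2.27 ± 0.35 and Map2, a dendritic microtubule protein, at 1.05 ± 0.17. Tubb3 went the other way, at -1.89, with 18 counts at 48 h and 199 in quiescence, and Dcx, of neuroblasts, had 0 counts in either culture. Of 9 measured neuron and neuroblast markers 5 lay above 0 and 4 below, with a median of 0.07. Microglial markers summed to 0 counts at 48 h and 4 in quiescence, endothelial ones to 5 and 5, pericyte and fibroblast ones to 0 and 3, and ependymal ones to 25 and 27, and the median of the 35 primary cilium genes was -0.01, with the opposite sign under other scalings (0.08 with spike-in RNAs). Oligodendrocyte lineage markers together, mostly Olig1 and Olig2, summed to 3540 CPM at 48 h and 1958 CPM in quiescence, and neuronal ones, mostly Map2, to 432 and 245 CPM. The part of these markers in other differences was not tested. The 6 defining astrocyte markers summed to between 248 and 666 CPM over the gates at 48 h and to between 1108 and 1190 CPM in quiescence. The neural stem cell markers Sox2, Nes, Vim, Fabp7, Sox9 and Slc1a3 had at least 274 counts in each culture, with Fabp7 at 2152 CPM at 48 h and 4901 CPM in quiescence, and Hopx had 8 counts at 48 h and 121 in quiescence.

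Several genes of the Notch pathway had lower transcript levels at 48 h. Hes5, its best known target in neural stem cells, had 3 counts at 48 h, or 3.5, 0, 0 and 0 CPM by gate, against 76.2, 84.7, 84.5 and 42.4 CPM in quiescence, and was 93.5-fold lower on summed counts (interval 32.0 to 454). The targets and ligands Hey1, Dner and Jag1 were at -2.66 ± 0.59, -2.70 ± 0.44 and -2.21 ± 0.24, and Notch1 itself at -1.47 ± 0.33. In all, 6 of 19 measured Notch genes were at least 2-fold lower and 0 higher, with a median of -0.34. Hes6, which antagonises Hes1, was the member nearest to 0, at 0.06 ± 0.55. The Wnt list had a median of -0.13 and members at opposite ends. Wif1, which binds Wnt ligands outside the cell, had 1.17, 0, 2.22 and 0.675 CPM at 48 h, against 226, 222, 112 and 114 CPM in quiescence. Wnt5a and Wnt7a, Wnt ligands, were at 2.06 ± 0.17 and 1.84 ± 0.30, and Axin2, a direct target of beta-catenin signalling, at 1.02 ± 0.36.

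Surface and matrix genes were lower in the main. Ncan, the proteoglycan neurocan, had 376, 494, 839 and 953 CPM at 48 h, against 8957, 9853, 9104 and 9092 CPM in quiescence, a log2 ratio of -3.87 ± 0.64. Sparcl1, a secreted glycoprotein of astrocytes, was at -4.04 ± 0.64 and agrin, Agrn, at -2.44 ± 0.55, and proteoglycans had a median of -0.52 with 6 of 22 at least 2-fold lower and 1 higher. The metalloproteinase inhibitors Timp3 and Timp4 were at -2.76 ± 0.45 and -2.36 ± 0.43, in a list of 30 collagens, laminins and integrins with a median of -0.35. Actin-binding genes had a median of 0.06, with Lgals1, galectin 1, at 2.03 ± 0.17 and Actn1, alpha-actinin, at -2.47 ± 0.53.

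Lysosome and autophagy genes were lower by a small margin in many genes. Of 66 measured lysosome genes 53 lay below 0, beside 52.6% of all measured genes, and the median was -0.42. At least 2-fold lower were 3 of the 66, near the share of 4.95% over all measured genes, and 0 were at least 2-fold higher. Cst3, cystatin C, an inhibitor of lysosomal cysteine proteases, had 288, 358, 568 and 820 CPM at 48 h, against 3718, 4197, 3734 and 3262 CPM in quiescence. The proteases Ctsl and Lgmn were at -1.71 ± 0.21 and -1.69 ± 0.17. Ctsd, cathepsin D, had 103, 159, 139 and 159 CPM at 48 h, against 257, 274, 260 and 286 CPM in quiescence, and Lamp1, of the lysosome membrane, was at -0.58 ± 0.19. Autophagy genes had a median of -0.43, with 7 of 42 at least 2-fold lower and 0 higher. These were led by Wipi1, of the early autophagosome, at -1.82 ± 0.44, Gabarapl1, an LC3 relative, at -1.33 ± 0.41, and Bnip3l, a mitophagy receptor, at -1.30 ± 0.27. Subunits of the v-ATPase, which acidifies lysosomes, had a median of -0.43 over 17.

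Transporters, channels and secreted peptides gave lists with wide spreads. Amino acid and neurotransmitter transporters had a median of -0.27, with the creatine transporter gene Slc6a8 at -2.75 ± 0.50. Ion channels and pumps had a median of -0.17, and the potassium channel gene Kcnc1, which lies outside that list, was at 2.86 ± 0.18. Of 22 measured peptide hormones and hypoxia-type targets, 3 were at least 2-fold higher and 3 lower, with a median of -0.49. The peptide hormone genes Adm and Apln were at 3.05 ± 0.49 and 3.01 ± 0.36, and Epas1, which encodes HIF-2 alpha, was at -2.47 ± 0.68. Apolipoproteins and lipid efflux genes had a median of -0.44, and Abca1, the cholesterol exporter, had 12.8, 5.65, 11.1 and 45.9 CPM at 48 h, against 290, 286, 197 and 230 CPM in quiescence. Metallothionein, zinc and iron genes had a median of -0.20, with transferrin, Trf, at 1.43 ± 0.49, circadian clock genes one of -0.35 over 16, Rab GTPases one of -0.23 over 29, and the 7 measured intermediate filament and lamin genes one of 0.63.

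The size of several differences followed the autofluorescence gate. Genes at least 2-fold lower numbered 779, 786, 598 and 421 from the low to the high gate and genes at least 2-fold higher 647, 604, 596 and 484. Of the 528 genes lower over all gates, 421 had a smaller difference in the high gate than in the low one, and their median ratios were -1.63, -1.57, -1.44 and -1.23. The log2 ratio in the high gate was above that in the low gate by 1 or more for 252 genes (2.36%) and below it by as much for 121 (1.13%). Astrocyte markers had medians of -1.78, -1.20, -0.89 and -0.81, and quiescent stem cell genes -1.25, -1.18, -0.90 and -0.47. Cholesterol genes had medians of 1.18, 1.18, 0.67 and 0.56 and ribosomal proteins 0.78, 0.80, 0.53 and 0.34. BMP targets had medians of -2.16, -2.04, -1.81 and -1.86 and G2/M genes 1.84, 2.11, 1.69 and 1.89. Other lists differed more toward the high gate, with medians of 0.99, 1.15, 1.47 and 1.52 for DNA replication and G1/S genes and 0.18, 0.55, 0.58 and 0.73 for G1 cyclins, CDKs and retinoblastoma genes. The number of 48 h cells called G0 rises over the same gates, and its part in these trends was not tested. From the low to the high gate the ratio of median transcripts per cell falls from 1.08 to 0.830. That of median autofluorescence rises from 0.967 to 1.14, and the part of either was not tested.

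**Figure D4:**
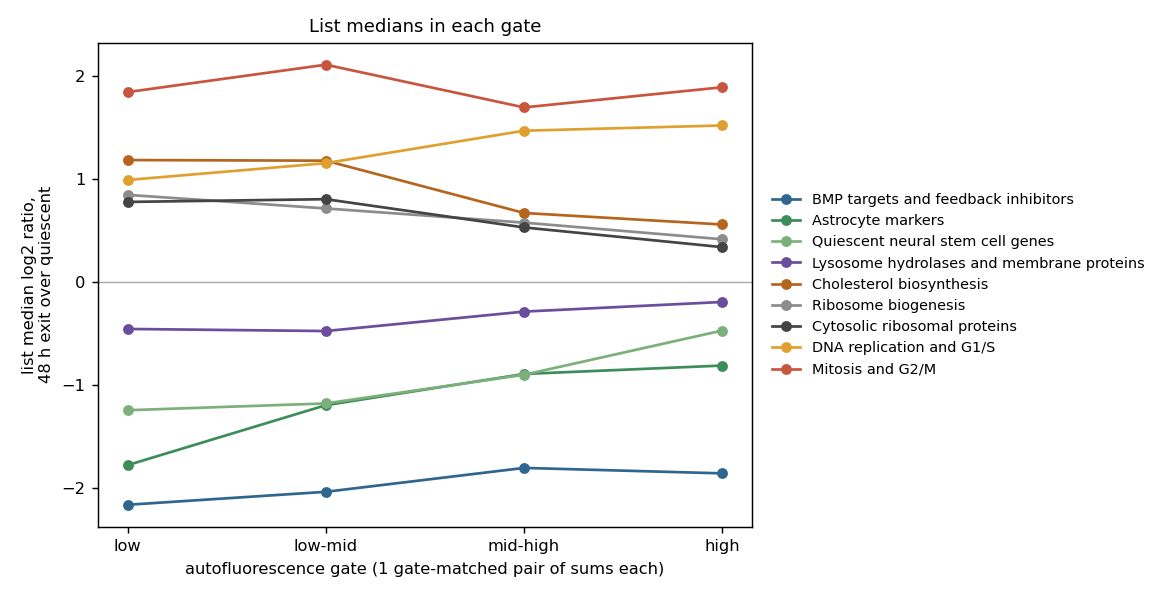
Median log2 ratio, 48 h exit over quiescent (vertical axis), of 9 gene lists in each autofluorescence gate (horizontal axis, low to high), with 1 gate-matched pair of sums per point. Astrocyte markers run between -1.78 in the low and -0.81 in the high gate and cholesterol genes between 1.18 and 0.56, and BMP targets run between -2.16 and -1.81.

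Cells called S or G2/M were then left out of both cultures, which kept 43 cells at 48 h and 158 in quiescence. At 48 h 22 of the kept cells were called G0 and 21 G1, against 146 and 12 in quiescence, so the sets differ in phase. The low gate at 48 h kept 8 cells, all called G1, and each gate counts equally in the mean. Over the 9829 genes with 20 counts in these cells, 207 (2.11%) were at least 2-fold higher and 600 (6.10%) at least 2-fold lower. Of the 477 higher genes 372 could be measured again, and 172 of them were still at least 2-fold higher, with a median of 0.95 beside 1.36 in all cells. Of the 528 lower genes all were measured again and 450 were still at least 2-fold lower, with medians of -1.44 and -1.42. Both sets of genes were picked by their ratio in all cells, which include the cells kept here, so these counts are no independent check. G2/M genes had a median of 0.84 over the 41 measured and G1/S genes 0.36 over 34, which the selection of cells by phase itself bears on. BMP targets were at -2.38, astrocyte markers at -0.86, ribosomal proteins at 0.50 and cholesterol genes at 0.66. Ccnd1 was at 4.59 in these cells and Pou3f1, a POU-domain factor, at 4.55, against 4.25 and 4.50 in all cells.

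**Figure D5:**
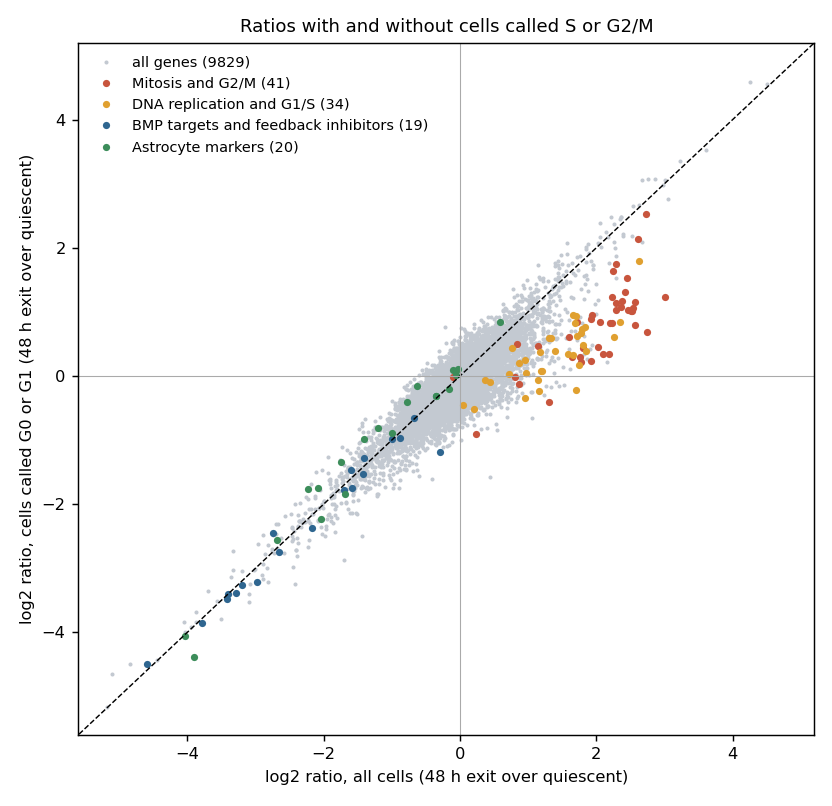
Log2 ratio, 48 h exit over quiescent, in all cells (horizontal axis) and in cells called G0 or G1 (vertical axis) for 9829 genes (grey) and for 4 lists (colours, with the number of genes measured in each). BMP targets and astrocyte markers lie near the dashed line of equality, and G2/M and G1/S genes lie below it.

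The 22 cells at 48 h that were still called G0 were set against the 146 quiescent cells called G0, a comparison chosen after the data were seen. They had a median autofluorescence of 8912, against 5562 in the quiescent G0 cells and 4821 in the 48 h cells called S or G2/M, and 13 of the 22 came from the high gate. Here and in the next paragraph rounded counts were summed over each group of cells, without gate matching, and 10 CPM were added before log2. Over 9528 genes, 184 (1.93%) were at least 2-fold higher and 554 (5.81%) at least 2-fold lower. The median of all these genes was -0.14. It was -0.06 in G1 cells and -0.04 in S or G2/M cells at 48 h, over the same quiescent G0 cells. BMP targets were low in the G0 cells at 48 h and in the cycling cells of their culture. In the G0 cells at 48 h all 19 measured lay below 0, beside 5857 of all 9528 genes. Their median was -2.28 there and -2.04 in S or G2/M cells at 48 h, each over quiescent G0 cells. Id1 was at 13.1 CPM in the G0 cells at 48 h, 17.1 CPM in the S or G2/M cells at 48 h and 331 CPM in quiescent G0 cells. Ccnd1 was at 1050, 962 and 29.0 CPM in the same 3 groups, and Pou3f1 at 375, 455 and 11.8 CPM.

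Glial genes were higher and biosynthetic genes lower in these 22 cells than in the cycling cells of their culture. Astrocyte markers had a median of -0.30 in the G0 cells at 48 h and of -1.28 in S or G2/M cells at 48 h, and quiescent stem cell genes -0.29 and -1.07. Slc1a2 was at 695 CPM in the G0 cells at 48 h and 237 CPM in the S or G2/M cells at 48 h, against 444 CPM in quiescent G0 cells. Aldoc was at 2156, 706 and 3447 CPM in these groups and Cst3 at 1201, 443 and 3784 CPM. Lcat, which esterifies cholesterol on lipoproteins, had 121, 22.0 and 1349 CPM, and so was low in the G0 cells at 48 h as well. Ribosomal proteins had a median of 0.08 in G0 cells at 48 h and 0.68 in S or G2/M cells at 48 h, ribosome biogenesis 0.09 and 0.75, and cholesterol synthesis 0.35 and 0.88. Oxidative phosphorylation genes had medians of 0.36 and 0.20. The 21 cells called G1 at 48 h had medians of -1.41 for astrocyte markers and 0.75 for ribosomal proteins. G0 calls and high autofluorescence go together in this culture, and their separate parts were not tested. The G0, G1 and S or G2/M calls were themselves made from transcript counts, so the selection of cells bears on the medians of this split.

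Levels in the remaining cultures place these differences. Id1 was at 339 CPM in quiescence, 54.8 CPM at 24 h, 16.7 CPM at 48 h and 28.3 CPM in activated cells, so its order put 48 h lowest. Ccnd1 was at 44.9, 235, 1037 and 1103 CPM in the same order, and Mki67 at 36.2, 35.9, 359 and 333 CPM. Slc1a2 was highest at 24 h, at 422, 1265, 291 and 17.1 CPM, and Fgf1 likewise at 483, 816, 277 and 51.8 CPM. Apoe was at 746, 556, 64.8 and 10.4 CPM. Pou3f1 was highest at 48 h, with 11, 143, 461 and 265 CPM. The 24 h cells were on the plate of the quiescent cells and the activated cells on that of the 48 h cells.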

How the data were processed

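Per the labels' protocols, single cells were sorted into 2 plates of 384 wells and sequenced by the SORT-seq version of CEL-Seq2, which counts the 3' ends of polyadenylated RNA. The deposited tables hold expected counts: transcripts per gene and cell, which the authors corrected for molecules sharing 1 of 4096 identifiers. The deposited per-cell table gives genes per cell as counts, mitochondrial and ribosomal shares in percent, cytometer intensity in arbitrary units, phase scores, phase calls and clusters, all set by the authors. The submitters' processing notes name BWA 0.7.15, R 4.2.0, Seurat 4.1.1 and the builds hg19 and mm10, without roles. How shared reads were assigned, and whether strand was used in counting, is not given in the sources used here.

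Cells were taken as the per-cell table assigns them, and 128 wells outside that table were not used. Counts were summed unrounded per culture and gate and divided by totals to CPM, and 10 CPM were added before log2 in Python 3.11.15 with scipy 1.17.1, pandas 2.3.3 and numpy 2.4.6 (figures with matplotlib 3.10.9), a calculation tested on simulated data. Genes under 20 counts over both cultures were left out. Each condition is 1 culture, the labels name no separate cultures or animals, and no count model was tested: edgeR 4.0.16 and DESeq2 1.42.0 in R 4.3.3 gave alternative scaling factors only. Intervals are exact (binomial for shares and for ratios of sums, at 95%) and cover counting error only. Cells were thinned to 13205 transcripts, the 10th percentile of totals, where shares of cells are compared. No doublet caller was run, since cells were sorted singly. The plates use the same well barcodes, 138 of which hold a cell of both cultures, and cells were kept apart by plate. Phase was not regressed out.

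The comparison and the 56 gene lists were chosen with earlier results of these data known. Genes named have at least 100 counts and a count in at least 10% of cells of 1 culture, apart from genes of ribosomal proteins or the mitochondrial genome, predicted genes and Rn45s: the 12 largest and 12 smallest ratios, up to 4 members of largest size and the smallest of each list, the 8 widest gate ranges, and 16 genes set by name. A few of these genes are left out of the text. Aldh1l1, Axin2, Bambi, Bmp7, Cdk4, Fabp7, Fgfr1, Gja1, Hmga2, Hmgcs1, Id2, Nbl1, Notch1, Olig1, Pdgfra, Plk1, Rb1, Rn45s, Rpl21, Ski, Slc1a3, Smad3, Smad7, Smad9, Sox9 and Sox11 were chosen after their values were seen. So were the split by G0 calls and totals without Rn45s. Promoter windows are RefSeq's on GRCm38.p6, matched by symbol. The alternatives tried were other ways of combining gates, pseudocounts, count minimums, scalings, cell weights, thinning and leaving out each gate.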

Additional observations from a re-analysis of the deposited data

Results flagged for a closer look

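Among the named genes, Tfrc and Cnp had log2 ratios of opposite sign in different gates, at or beyond 0.5 either way, with 1 pair of sums per gate, so the difference between gates was not tested. The ratio of Tfrc, the transferrin receptor, was -0.56 in its lowest gate and 0.50 in its highest. Cnp, an enzyme of the oligodendrocyte lineage, ran between -0.61 and 0.61, with 71.2, 74.5, 101 and 137 CPM at 48 h from the low to the high gate, against 114, 117, 112 and 86.4 CPM in quiescence. In both genes the cultures overlap.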

How the results depend on the processing

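No paired analysis was possible because each condition is 1 culture, with no replicates to pair. Apart from the comparison of cells called G0, the ratio is a mean over gates matched between the cultures, which are not replicates. Counts summed over all cells of a culture, without that matching, gave 477 genes at least 2-fold higher and 506 lower. No value changed sign among those past 2-fold. With 1 CPM added in place of 10, 1052 genes were at least 2-fold higher and 1173 lower, and medians were -2.90 for BMP targets, 0.91 for G1 cyclins, 0.41 for CDK inhibitors, 1.81 for G1/S, 2.63 for G2/M, 0.93 for chromatin, 0.90 for ribosome biogenesis, 0.88 for nucleotide synthesis, -0.58 for autophagy, -0.54 for collagens, -0.38 for ion channels, -0.67 for circadian genes, -0.70 for quiescence regulators, 0.74 for nuclear transport and 0.44 for mitochondrial ribosomal proteins. With at least 100 counts, medians were -2.70 for BMP targets, 0.30 for MAPK genes, 0.42 for CDK inhibitors, 1.46 for neuronal markers, -0.63 for collagens and -0.41 for ion channels. With no count minimum they were -1.65 for BMP targets, -0.22 for BMP receptors and ligands, -0.26 for EGF and FGF genes, -0.29 for stem cell identity, -0.42 for proteoglycans, -0.10 for collagens, 0.069 for intermediate filaments, -0.055 for metallothioneins, -0.11 for apolipoproteins, -0.25 for peptide hormones and 0.041 for mitochondrial transcripts. Thinning gave -0.25 for Wnt genes and -0.049 for metallothioneins, equal weight per cell gave -0.62 for proteoglycans, and totals without mitochondrial and ribosomal protein genes gave 1.02 for chromatin. Leaving out each gate in turn gave 471 to 499 higher and 505 to 606 lower genes, and medians of 1.56 to 1.70 for activated stem cell genes (lowest without the low-mid gate) and -0.57 to -0.40 for apolipoproteins (lowest without the mid-high gate). The median of primary cilium genes was 0.06 with totals without mitochondrial and ribosomal protein genes and 0.08 with spike-in scaling. Spike-in scaling moved the median of all genes by 0.13, and medians are set against that shift. Ratios of single genes depended on these choices too. Of 266 named genes, 104 were marked as moved with spike-in scaling and 101 with 1 CPM added. Thinning moved 47 of them and equal weight per cell 7. The causes were not tested. Depth limits genes of few counts, and with 10 CPM added the ratios of genes near 0 understate the difference.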
